A study of Mus musculus with 48 samples.

Results

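After a middle cerebral artery is blocked, brain tissue passes within days from the first alarm, with stress genes, chemokines and arriving leukocytes, to a phase in which microglia, astrocytes and vascular cells divide and in which phagocytes clear dead cells and myelin. Microglia, the resident macrophages of the brain, take up this debris into lysosomes, where cathepsins degrade protein and lipid hydrolases and the transporters NPC1 and NPC2 release cholesterol. The comparison here took the injured tissue 3 days after the occlusion against the injured tissue at 24 h. Its members were the 9 libraries whose labels give the condition MCAO and one of these times, 5 at day 3 (libraries A to E) and 4 at 24 h (libraries A to D), of 48 libraries in the series. The shams of both times, 4 libraries each, gave the change between the times without occlusion.

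The mice were C57Black/6 males aged 3 months by the study's methods, and the labels give neither a substrain nor an allele. MCAO groups had the artery coagulated and cut for a permanent occlusion, and shams went through surgery without occlusion. The labels describe the tissue as injured cortical region with both affected and non-affected tissue, and the infarct of this model as small, so each library mixes lesion and surrounding brain. The sources differ on how much was taken: the series' design text speaks of forebrain hemispheres and the study of almost the whole hemisphere on the injured side, so that neuronal, striatal and myelin levels may include regions below the cortex. Each library was made from polyadenylated RNA with a kit that reads the 3′ end of transcripts, and nothing in the labels ties a library to more than its letter, so the p-values measure the spread between libraries. Counts on genes ranged from 1599847 to 2361072 in the 9 libraries. Levels are given as CPM, counts scaled to library size with TMM factors, in the order of the letters (4 values at 24 h, 5 at day 3), and they compare a gene between libraries and not one gene with another. In bulk tissue, fewer cells of a type and less RNA per cell cannot be told apart.

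Library A of day 3 and a pseudogene at 24 h stood apart. Principal components were taken over the genes that varied most among the 17 MCAO and sham libraries of both times. The first component held 64.1% of the variance of these genes, and on it day 3 library A lay at -11.4. The other 4 day 3 libraries lay between 22.5 and 47.7, the 24 h libraries between 2.30 and 15.8 and the 8 shams between -21.6 and -16.4. On this component library A was nearer to the shams than to any other day 3 library, and results are given with and without it. The pseudogene *Tmem181b-ps* (chr17:6438524-6467022 of GRCm38) had 1, 0, 0 and 0 reads in the 24 h MCAO libraries and 8 to 120 in each of the other 44 libraries of the series.

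**Figure D1:**
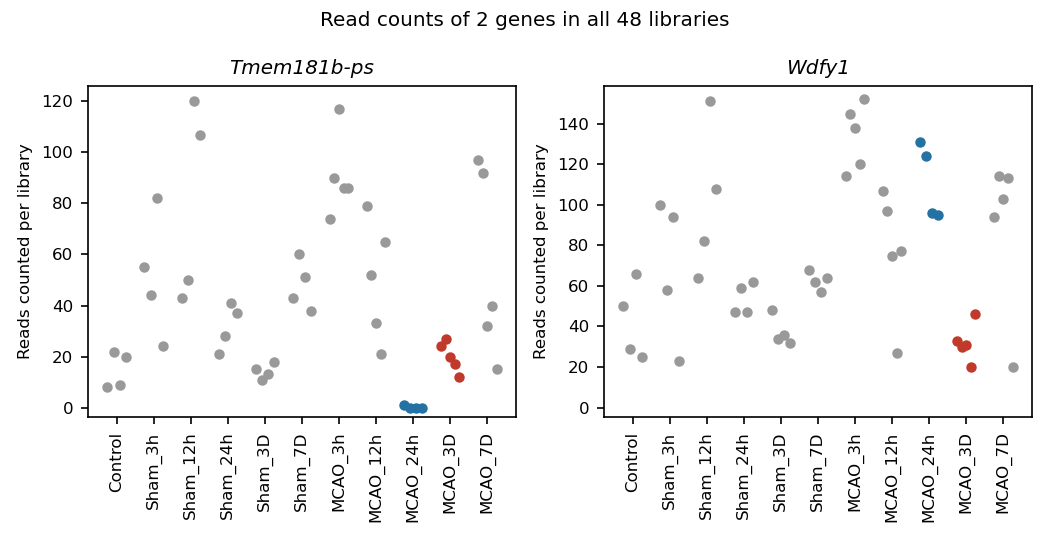
Reads counted per library (y axis) for *Tmem181b-ps* and *Wdfy1* in the 11 groups of the series (x axis), 1 point per library, with 24 h MCAO in blue and day 3 MCAO in red. All 4 blue points lie at 0 or 1 for *Tmem181b-ps*, while *Wdfy1* has 95 to 131 reads at 24 h and 20 to 46 at day 3.

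The ratio of *Tmem181b-ps* was 81.6 with an exact 95% counting interval from 14.3 to 3255, which covers counting error only. The 24 h shams had 21 to 41 reads. Since the labels give no substrain, a genotype of the 24 h MCAO mice and an effect of occlusion at 24 h cannot be told apart for this gene. A difference in genotype of the 24 h MCAO mice would enter every comparison below that uses them, also the difference from sham. Whether it did was not tested. *Wdfy1*, an endosomal protein, had the largest fall of the called genes and also varied widely among the other groups, from 15.0 to 17.4 CPM in day 3 shams to 51.7 to 69.3 CPM in MCAO at 3 h. The shams of the compared times did not overlap either, at 27.9 to 37.3 CPM at 24 h and 15.0 to 17.4 CPM at day 3, a log2 fold change of -0.96 that was not called (adjusted p = 0.984, edgeR). Its levels were 55.7, 58.0, 40.7 and 58.1 CPM at 24 h and 17.6, 13.6, 15.5, 9.77 and 20.3 CPM at day 3. *Wdfy1* had a log2 fold change of -1.78 ± 0.29 (SE), adjusted p = 0.000428, and -1.83 without library A.

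In edgeR's quasi-likelihood fit of all 48 libraries, 84 of 19970 genes were called higher at day 3 than at 24 h (0.421% of the genes tested) and 13 lower (0.0651%), at an adjusted p (Benjamini-Hochberg) under 0.01 and a log2 fold change over 0.58 in size. All 84 genes called higher were above every 24 h library in each of day 3 libraries B to E, while 54 of them had a level in library A no higher than the highest 24 h library, and library A was the lowest of the 5 for 78. The genes were called on these same libraries, so their place in libraries B to E is no separate support. The share of all genes that lay so in libraries B to E was not counted. Without library A the counts were 311 higher (1.56%) and 86 lower (0.431%), and the 97 genes called with it were all among these. Leaving out 24 h library A, B or C left 32, 15 or 30 calls, and leaving out day 3 library C or E left 29 or 33. 13 genes were called in each of the 9 fits that left out 1 library, among them *Tmem181b-ps*, *Wdfy1*, *Ube2c*, *Birc5*, *Top2a*, *Tacc3*, *Igfbp2*, *Adgre1*, *Ctss*, *Ctsd*, *Mpeg1* and *S100a6*. Every other call named below was lost without at least 1 library. A fit of these 2 groups alone, whose spread then rests on 9 libraries, called 4 genes (among them *Tmem181b-ps*, *Wdfy1* and *Aspm*), and the same fit without library A called 402 higher and 71 lower. In simulated data for this comparison, 46 of 100 genes changed by 1 and 88 of 100 changed by 1.5 on the log2 scale were called, so smaller changes could be missed. The changed genes were drawn from those above a minimum mean level, and each gene had the same spread in every group. In the data, the 84 genes called higher had a median SD of log2(CPM + 1) of 0.38 at 24 h and 0.89 at day 3. The simulated rates do not cover genes of few reads or a wider spread at day 3. Independent of the model, all 5 day 3 libraries lay above all 4 24 h libraries for 360 genes (1.8%) and below them for 236 (1.18%), among them 30 and 10 of the called genes. At an unadjusted p under 0.05 there were 3027 genes (15.2%), and DESeq2 called 233 of the genes fitted (1.17%). The list counts of these 2 kinds given below are to be read against these shares.

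**Figure D2:**
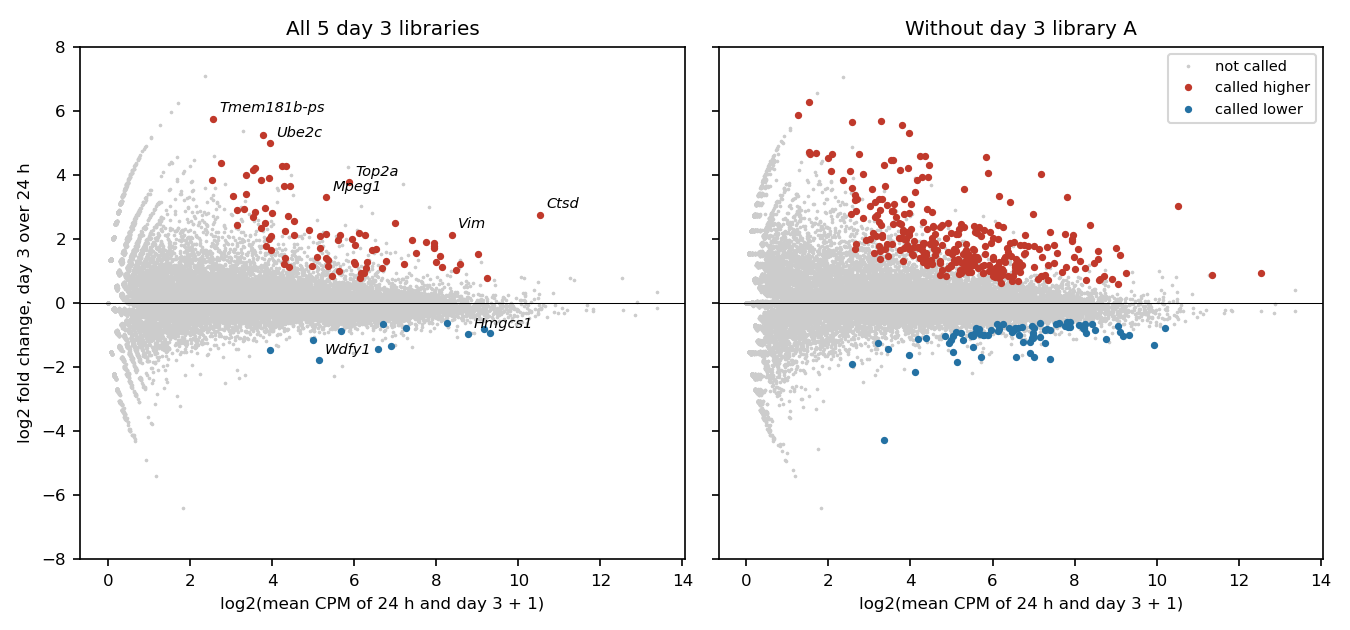
Log2 fold change of day 3 over 24 h (y axis) against log2 of the mean CPM of both groups plus 1 (x axis), 1 point per gene, without the genes that are not reported here. With all 5 day 3 libraries (left) 84 genes were called higher (red) and 13 lower (blue), and without day 3 library A (right) 311 and 86.

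Scaling to the ERCC spike-ins in place of TMM moved the median log2 fold change of all genes from 0.04 to -0.19 and called 38 genes higher and 21 lower, so that 64.4% of the calls were rises against 86.6% with TMM. All changes below are relative to the TMM scale, and each of the 97 called genes kept its direction under spike-in scaling. Between shams of day 3 and 24 h no gene was called (0%), with 947 genes at an unadjusted p under 0.05, and DESeq2 also called 0. A fit of the 2 sham groups alone called 28. When the change between the times after MCAO was set against the change in sham, 2 genes passed (0.01%), *Tmem181b-ps* among them, with 1762 at an unadjusted p under 0.05. Without library A 11 passed, among them also *Igfbp2*, *Apod*, *S100a6*, *Ctsd*, *C1qc*, *Ctss*, *Tmem176a*, *Tacc3* and *Myo10*. For most genes below, then, the day 3 rise after MCAO passed the test while its difference from the sham change did not. Against the shams of the same time, 750 genes were called higher at day 3 (3.76%) and 52 lower (0.26%), and 16 higher (0.0801%) and 2 lower (0.01%) at 24 h. These comparisons share the MCAO libraries with the main one, so their values are only set beside it. Of the 84 genes called higher, 67 were called above sham at day 3 and 0 at 24 h.

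Of the 50 gene lists, that of mitosis held the most called genes. Of 41 genes for the passage through mitosis (cyclins, kinases, kinesins and kinetochore and spindle proteins), 19 rose and 0 fell, 30 rose without day 3 library A, and the median log2 fold change was 3.03 (3.26 without day 3 library A) against 0.04 over all genes. The summed level of the list was 163, 135, 102 and 139.9 CPM at 24 h and 155, 631, 1022, 1040.1 and 1226 CPM at day 3. Day 3 library A was within the range of the 24 h libraries, and libraries B to E all lay above the highest of them. The count fell to 7, 5, 4 or 12 without 24 h library A, B, C or D and to 10, 11 or 8 without day 3 library C, D or E. Shams ranged from 92.6 to 111 CPM at 24 h and from 95.1 to 113 CPM at day 3.

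*Ube2c* (chr2:164769898-164778822), the ubiquitin-conjugating enzyme of the anaphase-promoting complex, had the smallest p of the list. It was measured at 1.70, 0, 0.424 and 1.22 CPM at 24 h and 1.07, 23.9, 42.9, 31.3 and 41.9 CPM at day 3, which are 4, 0, 1 and 2 reads against 2, 53, 86, 64 and 95. *Ube2c* had a log2 fold change of 4.996 ± 0.73 (SE), adjusted p = 0.000111, and 5.30 without library A. Libraries B to E stood far above the 24 h group, and library A lay inside it. *Top2a*, the topoisomerase that untangles sister chromatids, was at 13.2, 2.80, 6.78 and 8.56 CPM at 24 h and 6.41, 84.0, 146, 135 and 169 CPM at day 3. *Top2a* had a log2 fold change of 3.77 ± 0.61 (SE), adjusted p = 0.00038, and 4.08 without library A. *Birc5*, survivin of the chromosomal passenger complex, was at 4.67, 3.74, 1.27 and 0.611 CPM at 24 h and 4.27, 23.5, 53.9, 40.0 and 49.8 CPM at day 3. *Birc5* had a log2 fold change of 3.66 ± 0.58 (SE), adjusted p = 0.000369, and 3.94 without library A. *Tacc3*, a spindle protein, was at 3.40, 4.21, 2.97 and 5.50 CPM at 24 h and 11.7, 10.8, 34.5, 20.0 and 24.7 CPM at day 3. *Tacc3* had a log2 fold change of 2.35 ± 0.40 (SE), adjusted p = 0.000512, and 2.49 without library A. *Tacc3* differed from the other 3 in that library A also lay above all 24 h libraries.

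4 further rises of this kind were among the 12 largest for which the groups did not overlap. *Ccna2*, cyclin A2 of S phase and mitotic entry, was at 0.850, 0.467, 0 and 0.611 CPM at 24 h and 1.07, 8.13, 12.5, 11.7 and 21.6 CPM at day 3. These were 2, 1, 0 and 1 reads in the 24 h libraries and 2 reads in day 3 library A. *Ccna2* had a log2 fold change of 4.38 ± 0.84 (SE), adjusted p = 0.00239, and 4.66 without library A. *Cenpf* of the kinetochore was at 8.07, 6.08, 2.97 and 3.67 CPM at 24 h and 11.2, 24.9, 33.0, 45.4 and 59.9 CPM at day 3. *Cenpf* had a log2 fold change of 2.72 ± 0.48 (SE), adjusted p = 0.00106, and 2.94 without library A. *Nusap1* of the spindle had means of 1.61 ± 0.697 CPM (SD, n = 4) at 24 h and 17.0 ± 9.62 CPM (SD, n = 5) at day 3, and a log2 fold change of 3.40 ± 0.72 (SE), adjusted p = 0.0058, and 3.67 without library A. *Pbk*, a mitotic kinase, had means of 1.24 ± 0.550 CPM (SD, n = 4) at 24 h and 13.4 ± 6.11 CPM (SD, n = 5) at day 3, and a log2 fold change of 3.34 ± 0.71 (SE), adjusted p = 0.00698, and 3.57 without library A. *Aspm*, a spindle pole protein outside the list, was at 1.70, 0.467, 0.847 and 1.22 CPM at 24 h and 4.80, 16.7, 23.5, 28.3 and 31.3 CPM at day 3. *Aspm* had a log2 fold change of 4.23 ± 0.74 (SE), adjusted p = 0.000882, and 4.48 without library A. Library A was the lowest day 3 library for each of these 5 but lay above every 24 h library in CPM. For *Ccna2* day 3 library A had the same number of reads as 24 h library A.

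Genes of DNA replication, the MCM helicase, polymerases and enzymes of nucleotide supply, had fewer calls. Of 36, 1 rose (5 without day 3 library A) and 0 fell, with a median log2 fold change of 0.76 (0.98 without day 3 library A) and summed levels of 483, 414, 394 and 447 CPM at 24 h and 321, 529.6, 887, 692 and 944 CPM at day 3. The one called was *Rrm2*, the regulated subunit of ribonucleotide reductase, at 0.425, 1.40, 1.27 and 1.22 CPM at 24 h and 1.07, 12.7, 20.0, 27.8 and 38.8 CPM at day 3. *Rrm2* had a log2 fold change of 4.16 ± 0.81 (SE), adjusted p = 0.00244, and 4.46 without library A. 12 replication genes and 39 mitosis genes had an unadjusted p under 0.05, and DESeq2 called 3 and 26, against 15.2% and 1.17% of all genes. The difference between the lists was not tested.

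The promoters of both lists are shown because genes of mitosis are known to share a short element near the start, the CHR, through which repressor complexes of the MuvB type act in resting cells, and genes of replication an E2F site. In windows of 250 bases before to 50 after the start from RefSeq (GRCm38.p6), the CHR letters TTTGAA on either strand were held by 25 of the 34 mitosis genes with an entry (73.5%), by 4 of 29 replication genes (13.8%) and by 20.2% of all 27025 genes. Of the mitosis genes called, 12 of 16 with an entry held it (75%). The E2F letters TTCCCGCC, TTTCCCGC or TTTGGCGC on either strand, the first 2 of which overlap each other, were held by 15 of 29 replication genes (51.7%), 0 of 34 mitosis genes and 3.69% of all genes. These are matches of letters and were not tested. *Mcm7* has entries for 2 starts, of which 1 held the letters. The promoters of 4 called mitosis genes with the CHR letters in capitals, and of *Mcm7*, a subunit of the MCM helicase, with the E2F letters in capitals, read 5′ to 3′ as follows.
Ube2c, chr2:164769679-164769978, plus strand: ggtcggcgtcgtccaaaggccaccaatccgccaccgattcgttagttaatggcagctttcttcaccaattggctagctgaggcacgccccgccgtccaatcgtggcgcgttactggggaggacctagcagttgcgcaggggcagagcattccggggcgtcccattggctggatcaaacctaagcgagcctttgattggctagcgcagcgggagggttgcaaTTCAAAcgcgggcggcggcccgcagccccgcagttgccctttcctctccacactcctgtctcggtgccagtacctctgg
Cdc20, chr4:118437294-118437593, minus strand: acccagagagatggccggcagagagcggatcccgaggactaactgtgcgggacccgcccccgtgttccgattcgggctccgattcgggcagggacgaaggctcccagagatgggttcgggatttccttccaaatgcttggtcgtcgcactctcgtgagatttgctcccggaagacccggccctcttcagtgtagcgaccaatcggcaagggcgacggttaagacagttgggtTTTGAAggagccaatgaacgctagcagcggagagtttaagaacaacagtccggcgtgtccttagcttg
Top2a, chr11:99024140-99024439, minus strand: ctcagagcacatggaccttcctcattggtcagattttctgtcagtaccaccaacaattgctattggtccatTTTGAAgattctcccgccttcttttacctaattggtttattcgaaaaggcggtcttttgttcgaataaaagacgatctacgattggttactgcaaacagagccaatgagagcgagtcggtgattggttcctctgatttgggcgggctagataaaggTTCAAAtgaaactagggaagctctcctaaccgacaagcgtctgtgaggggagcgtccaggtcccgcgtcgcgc
Cdk1, chr10:69352863-69353162, minus strand: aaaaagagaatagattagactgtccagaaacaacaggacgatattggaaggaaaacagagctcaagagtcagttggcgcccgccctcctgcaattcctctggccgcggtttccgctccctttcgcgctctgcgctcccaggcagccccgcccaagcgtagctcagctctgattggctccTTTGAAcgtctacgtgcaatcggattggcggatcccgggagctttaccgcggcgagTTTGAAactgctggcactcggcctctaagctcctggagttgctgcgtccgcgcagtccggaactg
Mcm7, chr5:138171834-138172133, minus strand: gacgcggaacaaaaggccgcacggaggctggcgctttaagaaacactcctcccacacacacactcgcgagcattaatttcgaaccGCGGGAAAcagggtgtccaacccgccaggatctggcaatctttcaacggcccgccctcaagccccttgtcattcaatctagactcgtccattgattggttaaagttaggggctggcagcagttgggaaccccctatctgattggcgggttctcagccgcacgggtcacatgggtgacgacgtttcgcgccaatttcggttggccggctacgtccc
The CHR letters begin at position -29 from the start in *Ube2c*, -18 in *Cdc20*, -23 and -179 in *Top2a* and -15 and -71 in *Cdk1*, and the E2F letters at -165 in *Mcm7*. *Cdc20*, an activator of the anaphase-promoting complex, had a log2 fold change of 3.92 and *Cdk1*, the kinase of mitotic entry, one of 4.28 (both called), and *Mcm7* one of 1.29 (adjusted p = 0.0408, edgeR). *Cdc20*, *Cdk1* and *Mcm7* were chosen for their promoters after their values were seen.

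Across the series the mitosis list was high in day 3 libraries B to E and in 1 of the 5 day 7 MCAO libraries, at 875 CPM. It ranged from 194 to 230.0 CPM in the other 4 day 7 libraries, from 115 to 127 CPM in MCAO at 3 h and from 78.2 to 144 CPM in MCAO at 12 h.

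**Figure D3:**
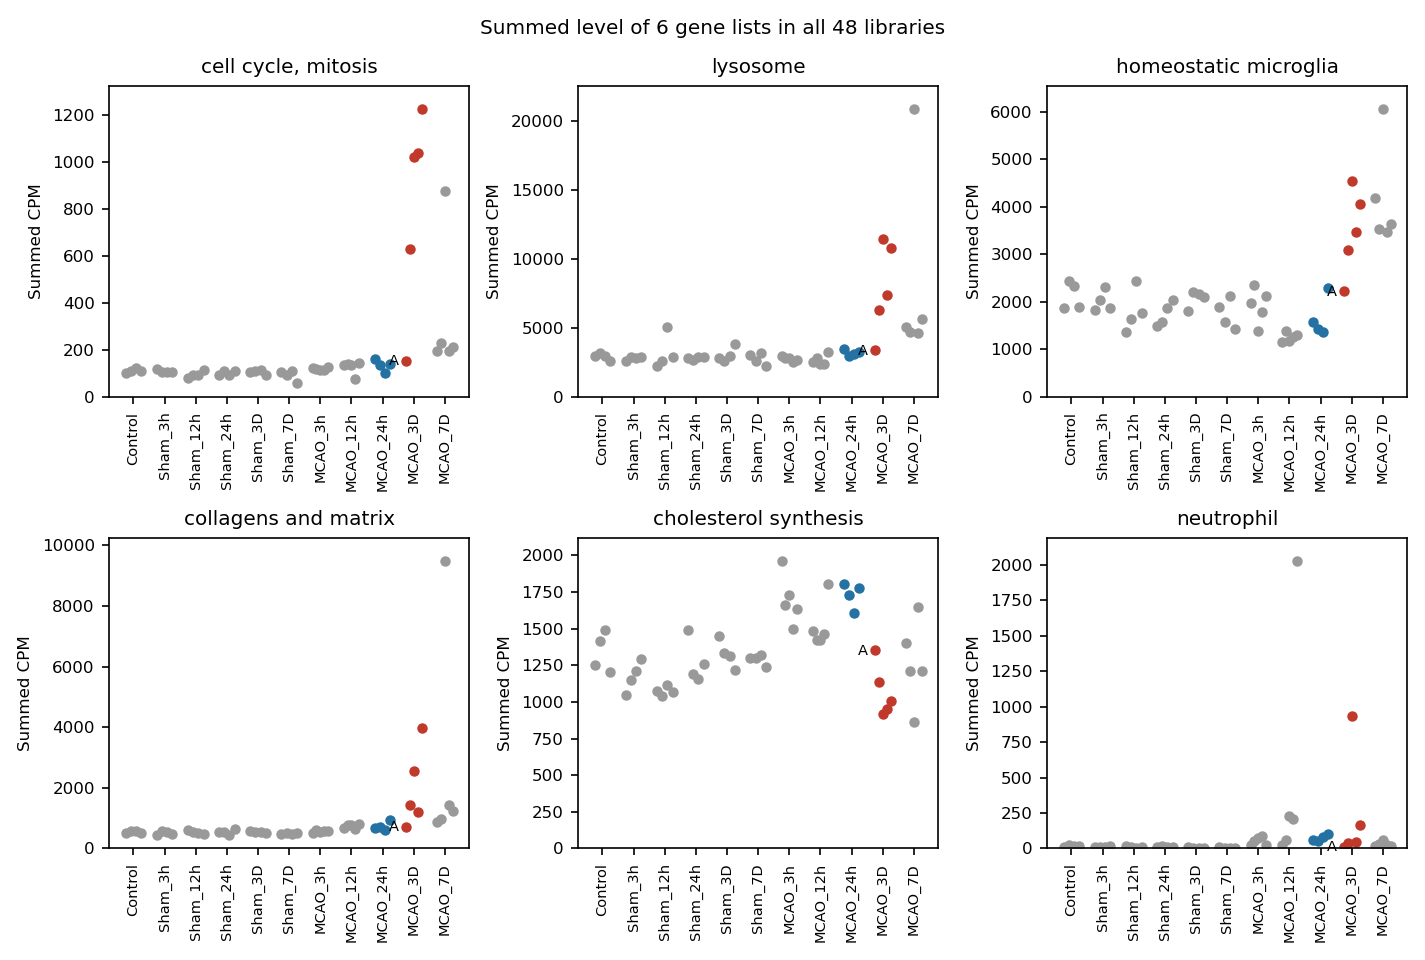
Summed CPM of 6 gene lists (y axis) in the 11 groups (x axis), 1 point per library, with 24 h MCAO in blue, day 3 MCAO in red and day 3 library A marked. In the mitosis panel library A lies at 155 CPM beside the 24 h points, libraries B to E at 631 CPM and above, and in the cholesterol synthesis panel all 5 red points lie below the 4 blue ones.

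Of 15 genes that mark homeostatic microglia, 6 rose and 0 fell (9 rose without day 3 library A, and 0 to 9 with any 1 library left out), with a median log2 fold change of 1.23 (1.41 without day 3 library A). Their summed level was 1579, 1427, 1359 and 2292 CPM at 24 h and 2221, 3087, 4549.5, 3462 and 4054 CPM at day 3. All day 3 libraries but A lay above the 24 h group. *P2ry12*, the ADP receptor that steers microglial processes, was at 8.50, 4.67, 3.39 and 5.50 CPM at 24 h and 15.5, 22.6, 22.0, 36.6 and 22.9 CPM at day 3. *P2ry12* had a log2 fold change of 2.103 ± 0.39 (SE), adjusted p = 0.0017, and 2.22 without library A. Set beside the shams, with means of 14.4 CPM at 24 h and 16.1 CPM at day 3, its 4 levels at 24 h after MCAO lay below every sham library of that time, and neither comparison with sham was called (log2 fold change of -1.37, adjusted p = 0.204 at 24 h, and 0.57, adjusted p = 0.352 at day 3, edgeR). *Selplg*, a selectin ligand, was at 27.2, 12.6, 9.32 and 15.9 CPM at 24 h and 34.7, 54.2, 75.9, 51.8 and 51.6 CPM at day 3. *Selplg* had a log2 fold change of 1.72 ± 0.32 (SE), adjusted p = 0.00185, and 1.84 without library A. *Csf1r*, the receptor on which microglia depend for survival, was at 173, 94.9, 143 and 156 CPM at 24 h and 176, 302, 608, 369 and 531 CPM at day 3. *Csf1r* had a log2 fold change of 1.49 ± 0.29 (SE), adjusted p = 0.0029, and 1.67 without library A. *Sparc*, a matrix protein also made by vascular cells, was at 226, 191, 175 and 319.6 CPM at 24 h and 282, 419, 642, 475 and 841 CPM at day 3. *Sparc* had a log2 fold change of 1.23 ± 0.25 (SE), adjusted p = 0.00318, and 1.39 without library A. For the first 3 all day 3 libraries lay above all 24 h libraries, and for *Sparc* library A overlapped them.

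Of 24 genes of the disease-associated microglia state, which phagocytes take up around debris, 3 rose and 0 fell (10 rose without day 3 library A, and 1 to 10 with any 1 library left out), with a median log2 fold change of 1.45 (1.70 without day 3 library A) and all 24 above 0. *Trem2*, a lipid-sensing receptor, was at 7.22, 5.14, 15.3 and 12.2 CPM at 24 h and 13.9, 45.6, 70.4, 50.8 and 59.5 CPM at day 3. *Trem2* had a log2 fold change of 2.27 ± 0.47 (SE), adjusted p = 0.00461, and 2.504 without library A. *Tyrobp*, its signalling adaptor, was at 30.2, 24.3, 16.5 and 43.4 CPM at 24 h and 30.4, 83.6, 206, 135 and 159.5 CPM at day 3. *Tyrobp* had a log2 fold change of 2.12 ± 0.46 (SE), adjusted p = 0.00671, and 2.37 without library A. In both, library A fell within the 24 h range. *Ctsd*, cathepsin D of the lysosome, was at 343, 329, 409.7 and 436 CPM at 24 h and 474, 1824, 4122, 2419.6 and 4005 CPM at day 3. *Ctsd* had a log2 fold change of 2.76 ± 0.46 (SE), adjusted p = 0.000452, and 3.03 without library A. Libraries B to E held it above library A, which was itself above all 24 h libraries. *Gpnmb* and *Spp1*, further members of the list, had log2 fold changes of 4.24 (adjusted p = 0.0101) and 3.71 (adjusted p = 0.0214, edgeR), and were chosen after their values were seen.

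Of 34 lysosomal genes, 7 rose and 0 fell (17 rose without day 3 library A), with a median log2 fold change of 0.98 (1.21 without day 3 library A) and summed levels of 3476, 3005, 3098 and 3269 CPM at 24 h and 3376, 6317, 11437, 7423 and 10842 CPM at day 3. Leaving out 1 library gave 2 to 17 rises. Beside *Ctsd*, they included *Ctss*, cathepsin S of antigen processing, at 125, 86.0, 87.3 and 145 CPM at 24 h and 129.7, 309.5, 591, 298 and 576 CPM at day 3. *Ctss* had a log2 fold change of 1.78 ± 0.29 (SE), adjusted p = 0.000409, and 2.00 without library A. *Grn*, progranulin, was at 117, 107, 118 and 110.0 CPM at 24 h and 149, 337, 524, 371 and 499 CPM at day 3. *Grn* had a log2 fold change of 1.73 ± 0.32 (SE), adjusted p = 0.00155, and 1.94 without library A. *Ctsh*, cathepsin H, was at 24.2, 23.8, 20.3 and 31.2 CPM at 24 h and 26.2, 108, 168, 82.0 and 178 CPM at day 3. *Ctsh* had a log2 fold change of 2.19 ± 0.42 (SE), adjusted p = 0.00213, and 2.44 without library A. *Npc2*, which hands cholesterol out of the lysosome, was at 135, 118, 155 and 187 CPM at 24 h and 175, 289.6, 485, 379.9 and 455 CPM at day 3. *Npc2* had a log2 fold change of 1.27 ± 0.25 (SE), adjusted p = 0.00243, and 1.44 without library A. *Grn* had no overlap between the groups, whereas library A overlapped the 24 h libraries for *Ctss*, *Ctsh* and *Npc2*. *Hexa*, a hydrolase of gangliosides, and *Laptm5*, a lysosomal membrane protein of leukocytes, also rose, by 1.30 and 1.67 on the log2 scale.

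*Mpeg1*, perforin-2 of macrophages, *Cd37*, a tetraspanin of leukocytes, and *Hacd4*, an enzyme of fatty acid elongation, were in no list and were among the 12 largest rises without overlap. *Mpeg1* was at 5.52, 7.01, 5.93 and 10.4 CPM at 24 h and 12.8, 44.3, 136, 49.8 and 108 CPM at day 3. *Mpeg1* had a log2 fold change of 3.30 ± 0.55 (SE), adjusted p = 0.000431, and 3.57 without library A. *Cd37* had means of 2.82 ± 0.820 CPM (SD, n = 4) at 24 h and 18.5 ± 9.42 CPM (SD, n = 5) at day 3, and a log2 fold change of 2.69 ± 0.51 (SE), adjusted p = 0.00213, and 2.86 without library A. *Hacd4* had means of 2.41 ± 0.564 CPM (SD, n = 4) at 24 h and 13.2 ± 6.85 CPM (SD, n = 5) at day 3, and a log2 fold change of 2.45 ± 0.54 (SE), adjusted p = 0.00753, and 2.68 without library A. In all 3 library A was the lowest of day 3. *Cd5l*, a secreted macrophage protein, had a fitted rise of 5.25 on the log2 scale, with means of 0.624 CPM at 24 h and 24.9 CPM at day 3. Among the 42 called genes in no list were further genes of phagocytes: *Dock2*, which drives leukocyte migration (2.57 on the log2 scale), *Tcirg1*, a subunit of the proton pump of lysosomes and osteoclasts (2.13), *Unc93b1*, which carries nucleic acid-sensing Toll-like receptors to endosomes (2.12), *Ncf1*, a subunit of the NADPH oxidase (1.97), and *P2rx7*, an ATP-gated channel (1.77). *Ccnd1*, cyclin D1 of G1 phase, rose by 1.11. *Cd5l* and the genes after it were chosen after their values were seen.

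Of 22 genes of monocytes and macrophages, 1 rose and 0 fell (6 rose without day 3 library A, and 1 to 6 with any 1 library left out), with a median log2 fold change of 2.06 (2.37 without day 3 library A) and summed levels of 199, 156, 157 and 307 CPM at 24 h and 125, 515, 1871, 591 and 1773 CPM at day 3. The gene called was *Adgre1*, which encodes F4/80, a surface receptor of macrophages and microglia, at 2.12, 5.14, 2.12 and 2.44 CPM at 24 h and 4.80, 29.8, 58.4, 50.3 and 46.7 CPM at day 3. *Adgre1* had a log2 fold change of 3.66 ± 0.59 (SE), adjusted p = 0.000369, and 3.94 without library A. Of 18 neutrophil genes tested, 0 changed by edgeR (7 at an unadjusted p under 0.05 and 0 called by DESeq2), and their sum was 59.1, 56.1, 79.6 and 104 CPM at 24 h and 11.7, 41.6, 932, 43.5 and 163 CPM at day 3. Day 3 library C alone carried most of this signal, and *S100a8* had a log2 fold change of 1.77 ± 0.84 (adjusted p = 0.298) and *S100a9* one of 1.64 ± 0.87 (adjusted p = 0.369), both of which turned below 0 without it (-0.87 and -0.68). Of 10 T, NK and B cell genes tested, of 20 listed, 0 changed by edgeR (1 at an unadjusted p under 0.05 and 0 called by DESeq2), and their sum was 15.9 to 63.5 CPM at 24 h and 29.9 to 47.9 CPM at day 3. The T cell receptor components *Cd3e*, *Cd3d* and *Cd3g* and *Cd8a* had too few reads to be tested.

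Of 17 complement genes tested, 2 rose and 0 fell (5 rose without day 3 library A, and 0 to 5 with any 1 library left out), with a median log2 fold change of 0.97 (1.27 without day 3 library A). They encode 2 of the 3 chains of C1q, which opens the classical pathway and in brain comes from microglia. The third, *C1qb*, had a log2 fold change of 1.49 (adjusted p = 0.0155, edgeR) and was called without library A. *C1qa* was at 98.6, 92.1, 94.9 and 139.9 CPM at 24 h and 95.0, 274, 643, 359 and 572 CPM at day 3. *C1qa* had a log2 fold change of 1.87 ± 0.38 (SE), adjusted p = 0.0038, and 2.12 without library A. *C1qc* was at 103, 81.3, 78.0 and 97.8 CPM at 24 h and 98.2, 263, 507, 326 and 504 CPM at day 3. *C1qc* had a log2 fold change of 1.92 ± 0.34 (SE), adjusted p = 0.00109, and 2.15 without library A. In both genes day 3 library A did not rise above the 24 h range. Of 12 genes of MHC class I presentation, 2 rose and 0 fell (6 rose without library A), with a median of 1.52 (1.74 without day 3 library A). *B2m*, the light chain of class I molecules, was at 182, 262, 341 and 267 CPM at 24 h and 351, 674, 1257, 552 and 995 CPM at day 3. *B2m* had a log2 fold change of 1.54 ± 0.28 (SE), adjusted p = 0.00114, and 1.72 without library A. *H2-D1*, a heavy chain with close paralogs that can share reads, was at 26.3, 28.0, 43.6 and 67.8 CPM at 24 h and 44.3, 87.2, 178, 79.6 and 256 CPM at day 3. *H2-D1* had a log2 fold change of 1.65 ± 0.35 (SE), adjusted p = 0.00548, and 1.87 without library A. Between the shams *H2-D1* had a log2 fold change of 0.71 (adjusted p = 0.984, edgeR). Its change after MCAO exceeded that of sham by 0.94 (adjusted p = 0.599, edgeR), and neither was called. *B2m* was separated between the groups and *H2-D1* was not. Of 7 class II genes 0 changed by edgeR (5 at an unadjusted p under 0.05 and 0 called by DESeq2), 3 rose without library A, and *H2-Aa* had a log2 fold change of 1.90 ± 0.50 (adjusted p = 0.0341) and *H2-Ab1* one of 1.85 ± 0.52 (adjusted p = 0.0482). Of 6 Fc receptor genes 0 changed by edgeR (4 at an unadjusted p under 0.05 and 0 called by DESeq2), 2 rose without library A, and *Fcgr1* had a log2 fold change of 1.04 ± 0.59 (adjusted p = 0.407) and *Fcgr2b* one of 1.38 ± 0.53 (adjusted p = 0.181). Of 29 interferon-stimulated genes, 1 rose (6 without library A) with a median of 1.077 (1.31 without day 3 library A). It was *Irf8*, a transcription factor of microglia and myeloid cells, at 22.9, 29.4, 30.1 and 29.3 CPM at 24 h and 35.2, 90.8, 138, 92.3 and 139 CPM at day 3. *Irf8* had a log2 fold change of 1.83 ± 0.34 (SE), adjusted p = 0.00155, and 2.04 without library A.

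Cytokines and chemokines were not called between the times. Of 23 genes of the IL-1, TNF and NF-kB response, 16 of CC chemokines and receptors, 14 of CXC chemokines and receptors and 16 of the IL-6 family and STAT3, 0 changed by edgeR, with in this order 10, 5, 5 and 3 at an unadjusted p under 0.05 and 0, 0, 0 and 0 called by DESeq2, beside 15.2% and 1.17% of all genes. Without day 3 library A 1 CXC gene rose, *Cxcl16*. *Ccl2* had a log2 fold change of 0.72 ± 0.87 (adjusted p = 0.752) and *Ccl3* one of 1.37 ± 0.97 (adjusted p = 0.528). *Il1a* had a log2 fold change of 1.10 ± 1.12 (adjusted p = 0.689) and *Il1b* one of 2.47 ± 0.95 (adjusted p = 0.181). *Il1b* was at 5.52, 3.74, 3.39 and 6.11 CPM at 24 h and 0, 2.71, 118, 3.42 and 5.73 CPM at day 3, and without library C its value was -0.62. The 4 medians ran from 0.30 for the IL-6 family to 1.21 for the CXC list, and the CC chemokine genes summed to 48.9, 79.5, 87.7 and 161 CPM at 24 h and 19.8, 69.1, 314, 83.0 and 186 CPM at day 3, with both ends of the range at day 3. Over the shams of the same time, the medians in the first order were 1.19, 3.56, 2.04 and 1.93 at 24 h. At day 3 they were 2.22, 3.92, 3.73 and 2.24. The CC genes together summed to 6.53 to 14.6 CPM in the 24 h shams and 11.2 to 19.2 CPM in the day 3 shams. *Ccl2* was at 0 CPM in every 24 h sham. The size of the CC medians over sham thus rests on few reads. Called above sham were 1, 1, 0 and 0 at 24 h and 7, 7, 4 and 9 at day 3, against 0.0801% and 3.76% of all genes. The summed CXC level went the other way, at 594 to 736 CPM at 24 h and 726 to 860 CPM in the shams of that time.

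**Figure D4:**
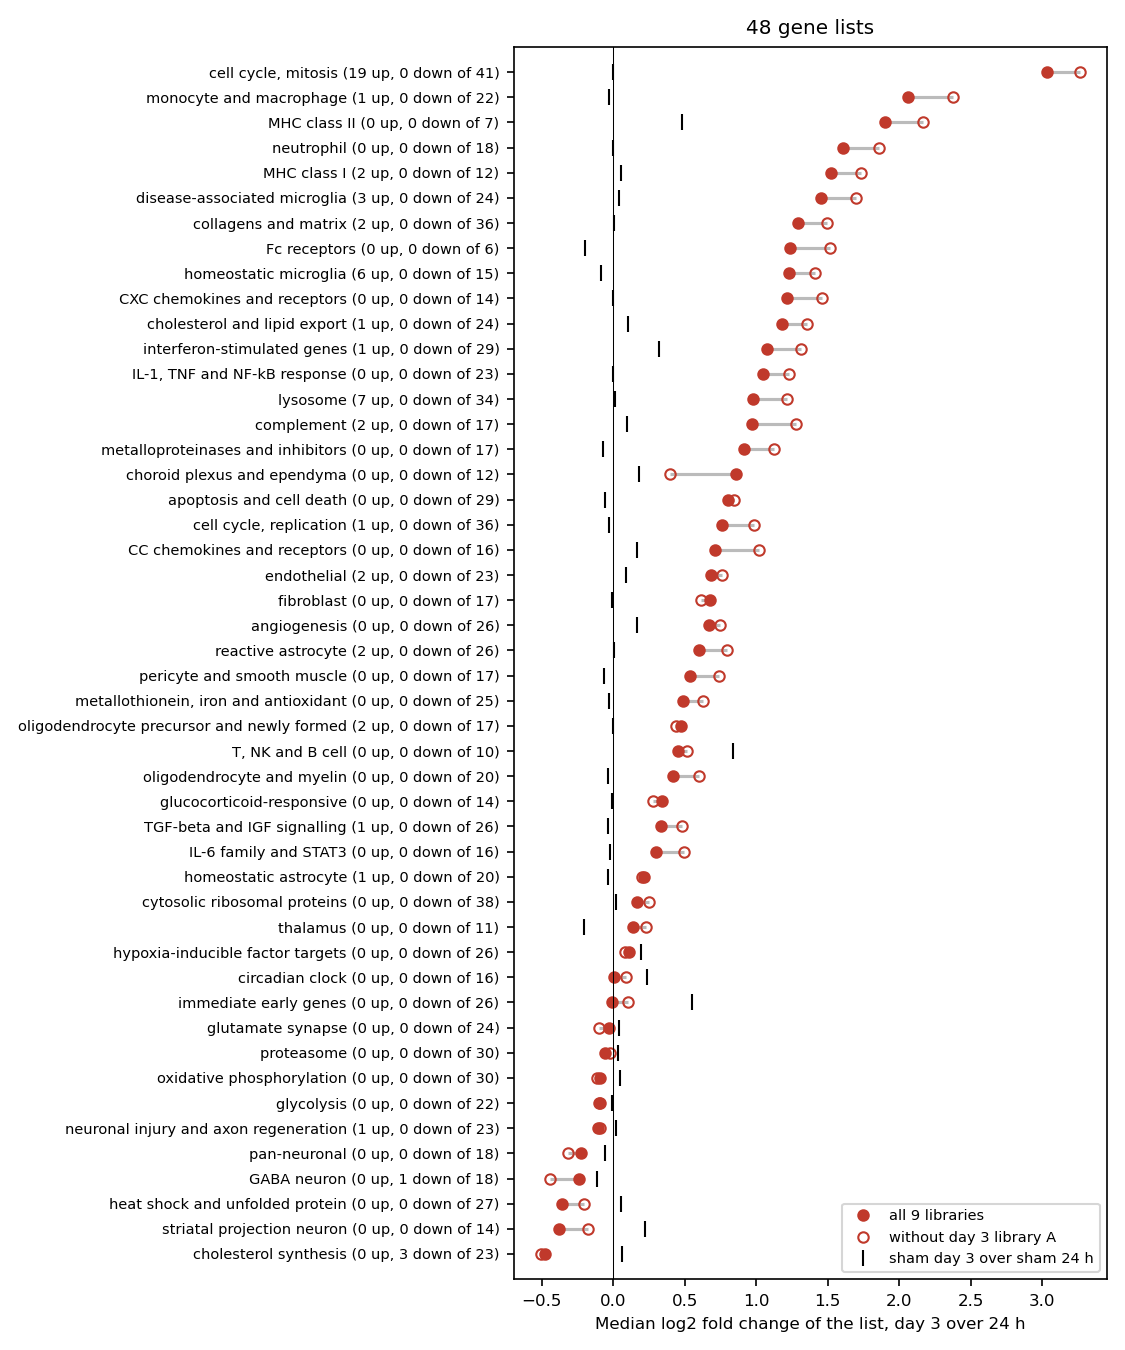
Median log2 fold change of day 3 over 24 h (x axis) for 48 of the 50 gene lists (y axis, with the number of genes called up and down of those tested) over all 9 libraries (filled), without day 3 library A (open) and between the shams of the same times (black ticks). The mitosis list is highest at 3.03 and the cholesterol synthesis list lowest at -0.48.

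Among the 13 genes called lower were 3 of a cholesterol list, of which *Hmgcs1* and *Msmo1* are described. Of 23 genes of cholesterol synthesis and its control, 0 rose and 3 fell (6 fell without day 3 library A, and 1 to 6 with any 1 library left out), with a median log2 fold change of -0.48 (-0.51 without day 3 library A). All 5 day 3 libraries lay below all 24 h libraries in the summed level, at 1805, 1730.2, 1607 and 1778 CPM at 24 h and 1352, 1134, 917, 954 and 1006 CPM at day 3. The sum weights genes by level, and the called *Hmgcs1* and *Msmo1* (below) hold a large part of it. Of the 23 fitted changes, 20 were below 0. For 8 of the 23 genes all day 3 libraries lay below all 24 h libraries, against 1.18% of all genes. The day 3 shams summed to 1214 to 1449 CPM and the 24 h shams to 1158 to 1488 CPM, so that the 24 h MCAO libraries lay above their shams and 4 of the 5 day 3 libraries below theirs. *Hmgcs1* (chr13:119690379-119708260), the synthase that makes HMG-CoA, was at 666, 633, 471 and 537 CPM at 24 h and 419, 351, 220.2, 232 and 249 CPM at day 3. *Hmgcs1* had a log2 fold change of -0.97 ± 0.17 (SE), adjusted p = 0.000987, and -1.13 without library A. *Msmo1*, a sterol demethylase, was at 220.5, 169.7, 166 and 219 CPM at 24 h and 137, 110.3, 107, 110.4 and 103 CPM at day 3. *Msmo1* had a log2 fold change of -0.77 ± 0.15 (SE), adjusted p = 0.00244, and -0.85 without library A.

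The promoter of *Hmgcs1* is shown with the letters TCACNCCAC of a sterol regulatory element in capitals, at which SREBP factors are known to act and which begin at -137 from the start. The search was added after the values were seen, and 1 of 16 list members with an entry held these letters (6.25%), against 1.44% of all genes.
Hmgcs1, chr13:119690101-119690400, plus strand: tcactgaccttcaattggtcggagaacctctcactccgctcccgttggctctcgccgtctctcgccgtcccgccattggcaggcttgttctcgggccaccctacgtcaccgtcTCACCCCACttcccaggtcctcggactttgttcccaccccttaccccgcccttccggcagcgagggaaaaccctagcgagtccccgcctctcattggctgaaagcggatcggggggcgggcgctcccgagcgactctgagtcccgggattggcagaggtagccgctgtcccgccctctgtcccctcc

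Of 24 genes of cholesterol and lipid export and storage, 1 rose (*Npc2*, above) and 0 fell, while 7 rose without day 3 library A. All 24 fitted changes were above 0, with a median of 1.18 (1.35 without day 3 library A), and the summed level was 2598, 2520.1, 2652 and 2686 CPM at 24 h and 3346, 4080.0, 5603, 3833 and 6391 CPM at day 3, without overlap between the groups. *Abca1*, which exports cholesterol, and *Plin2*, which coats lipid droplets, had log2 fold changes of 1.34 (adjusted p = 0.0121) and 3.02 (adjusted p = 0.0132, edgeR). These 2 were chosen after their values were seen.

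Of 26 genes of reactive astrocytes, 2 rose and 0 fell (3 rose without day 3 library A, and 1 to 3 with any 1 library left out), with a median log2 fold change of 0.60 (0.79 without day 3 library A). *Vim*, vimentin of intermediate filaments, was at 99.8, 121, 86.8 and 188 CPM at 24 h and 43.2, 419, 833, 553 and 859 CPM at day 3. *Vim* had a log2 fold change of 2.14 ± 0.40 (SE), adjusted p = 0.0017, and 2.43 without library A. *S100a6*, a calcium-binding protein, was at 84.5, 81.3, 66.1 and 133 CPM at 24 h and 70.5, 235, 371, 278 and 394 CPM at day 3. *S100a6* had a log2 fold change of 1.57 ± 0.26 (SE), adjusted p = 0.000479, and 1.82 without library A. For *Vim* library A was the lowest of the 9, and for *S100a6* it lay within the 24 h range. *Gfap*, the classical astrocyte filament, had a log2 fold change of 0.71 (adjusted p = 0.319, edgeR). Of 20 genes of homeostatic astrocytes, 1 rose (3 without library A), with a median of 0.21 (0.20 without day 3 library A). It was *Gja1*, connexin 43 of astrocyte gap junctions, at 40.8, 65.0, 69.1 and 83.1 CPM at 24 h and 128, 149.6, 161, 117 and 133 CPM at day 3. *Gja1* had a log2 fold change of 1.10 ± 0.24 (SE), adjusted p = 0.00753, and 1.12 without library A. Here library A lay with the other day 3 libraries.

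Of 17 genes of oligodendrocyte precursors and newly formed oligodendrocytes, 2 rose and 0 fell (3 rose without day 3 library A), with a median log2 fold change of 0.48 (0.44 without day 3 library A). *Olig1*, a transcription factor of the lineage, was at 98.6, 63.1, 68.6 and 122 CPM at 24 h and 81.7, 191, 246, 273 and 237 CPM at day 3. *Olig1* had a log2 fold change of 1.23 ± 0.21 (SE), adjusted p = 0.000522, and 1.43 without library A. *Itpr2*, a calcium channel of the endoplasmic reticulum, was at 53.5, 39.7, 58.5 and 55.0 CPM at 24 h and 63.5, 95.8, 113, 78.1 and 89.9 CPM at day 3. *Itpr2* had a log2 fold change of 0.77 ± 0.17 (SE), adjusted p = 0.00784, and 0.87 without library A. Library A overlapped the 24 h group for *Olig1* and not for *Itpr2*. Of 20 genes of myelin, 0 changed by edgeR (3 at an unadjusted p under 0.05 and 0 called by DESeq2), 1 rose without library A, and *Mbp* had a log2 fold change of 0.40 ± 0.31 (adjusted p = 0.58). *B2m* (above) also stands on the list of disease-associated oligodendrocytes, whose count is not reported here. The myelin sum, at 2810.0, 1404, 2224 and 6033 CPM at 24 h and 1950.1, 4458, 4536, 6366 and 4312 CPM at day 3, varied within the groups. Markers of striatal projection neurons, which lie below the cortex, summed to 3827, 1360.5, 1287 and 8008 CPM at 24 h and 1502, 3434, 1264, 5570.3 and 2191 CPM at day 3. In both lists library D was the highest of its group at each time, and the part of the tissue taken in the myelin values was not tested.

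Of 23 endothelial genes, 2 rose and 0 fell (7 rose without day 3 library A, and 0 to 7 with any 1 library left out), with a median log2 fold change of 0.69 (0.76 without day 3 library A). *Itm2a*, a membrane protein, was at 29.3, 9.81, 16.5 and 20.2 CPM at 24 h and 38.4, 42.5, 42.4, 39.1 and 48.9 CPM at day 3. *Itm2a* had a log2 fold change of 1.15 ± 0.22 (SE), adjusted p = 0.0017, and 1.19 without library A. *Cldn5*, claudin 5 of the tight junctions that form the blood-brain barrier, was at 8.07, 3.74, 6.78 and 9.78 CPM at 24 h and 18.2, 18.98, 28.5, 20.0 and 26.0 CPM at day 3. *Cldn5* had a log2 fold change of 1.66 ± 0.36 (SE), adjusted p = 0.00721, and 1.72 without library A. Both were separated, with day 3 library A on the side of its group, beside sham means at 24 h of 33.9 CPM for *Itm2a* and 8.10 CPM for *Cldn5* (MCAO over sham at 24 h, log2 fold changes of -0.83, adjusted p = 0.125, and -0.20, adjusted p = 0.938, by edgeR). Of 17 pericyte and smooth muscle genes and 26 genes of angiogenesis, 0 changed by edgeR (8 and 10 at an unadjusted p under 0.05 and 1 and 0 called by DESeq2), 1 of each rose without library A, and *Rgs5* had a log2 fold change of 0.72 ± 0.22 (adjusted p = 0.0873) and *Pdgfrb* one of 1.01 ± 0.35 (adjusted p = 0.124).

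Of 36 genes of collagens and matrix, 2 rose and 0 fell (4 rose without day 3 library A, and 0 to 4 with any 1 library left out), with a median log2 fold change of 1.29 (1.49 without day 3 library A). They were *Sparc* (above) and *Lgals1*, galectin 1, at 37.4, 28.0, 30.9 and 57.4 CPM at 24 h and 26.2, 159, 305, 215 and 369.7 CPM at day 3. *Lgals1* had a log2 fold change of 2.49 ± 0.45 (SE), adjusted p = 0.00109, and 2.78 without library A. The summed level was 676, 721, 614 and 937 CPM at 24 h and 719, 1450.1, 2561, 1193 and 3977 CPM at day 3, highest in library E. Of 17 fibroblast genes tested, 0 changed by edgeR (7 at an unadjusted p under 0.05 and 1 called by DESeq2), 1 rose without library A, and *Col1a1* had a log2 fold change of 2.29 ± 0.72 (adjusted p = 0.0898) and *Col1a2* one of 1.96 ± 0.66 (adjusted p = 0.116), with *Col1a1* at 22.9, 19.2, 15.7 and 33.0 CPM at 24 h and 24.0, 62.4, 108, 6.84 and 347 CPM at day 3. Among 26 genes of TGF-beta and IGF signalling, 1 rose (2 without library A), with a median of 0.33 (0.48 without day 3 library A). It was *Igfbp2*, which binds insulin-like growth factors, at 25.1, 20.1, 28.0 and 23.8 CPM at 24 h and 29.9, 60.6, 142, 115 and 136 CPM at day 3. *Igfbp2* had a log2 fold change of 1.99 ± 0.31 (SE), adjusted p = 0.000206, and 2.22 without library A. All day 3 libraries lay above all 24 h libraries, and the change exceeded that of sham by 2.39 on the log2 scale (adjusted p = 0.0152, edgeR), a difference that was called without library A.

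The lists of neuron types and synapses held 1 call. *Gabra2*, a GABA-A receptor subunit, was the one of 18 GABA neuron genes that fell (2 fell without day 3 library A), at 199, 197, 124 and 164 CPM at 24 h and 104, 69.6, 41.0, 82.0 and 37.9 CPM at day 3. *Gabra2* had a log2 fold change of -1.36 ± 0.30 (SE), adjusted p = 0.00746, and -1.57 without library A. Of 18 pan-neuronal genes and 24 of glutamate synapses 0 changed by edgeR (3 and 3 at an unadjusted p under 0.05 and 0 and 0 called by DESeq2), 1 fell in each without library A, with medians of -0.22 (-0.32 without day 3 library A) and -0.03 (-0.10 without day 3 library A), and *Rbfox3* had a log2 fold change of -0.17 ± 0.16 (adjusted p = 0.67) and *Snap25* one of -0.18 ± 0.16 (adjusted p = 0.649). *Slc17a7*, the vesicular glutamate transporter that marks cortical excitatory neurons, was present in every library, at 560.4, 501, 492 and 230.4 CPM at 24 h and 511, 398, 303, 408 and 319.5 CPM at day 3. *Slc17a7* had a log2 fold change of -0.20 ± 0.20 (adjusted p = 0.68) and *Slc17a6* one of -1.06 ± 0.35 (adjusted p = 0.107), and *Slc17a6*, its subcortical counterpart, was the synapse gene called without library A. Among 23 genes of neuronal injury and axon regeneration, *Lgals1* was the one called. Further genes that fell without overlap were in no list. *Megf11*, an EGF-repeat protein, was at 27.6, 23.8, 11.9 and 22.0 CPM at 24 h and 10.7, 6.78, 5.49, 8.79 and 6.61 CPM at day 3. *Megf11* had a log2 fold change of -1.47 ± 0.31 (SE), adjusted p = 0.0058, and -1.61 without library A. *Ndn*, necdin of postmitotic neurons, was at 209, 146, 94.0 and 105 CPM at 24 h and 83.3, 48.8, 28.0, 61.0 and 33.9 CPM at day 3. *Ndn* had a log2 fold change of -1.45 ± 0.31 (SE), adjusted p = 0.00684, and -1.69 without library A. *Cplx2*, complexin 2 of vesicle release, was at 1216, 734, 652 and 739 CPM at 24 h and 524, 536, 309, 475 and 351 CPM at day 3. *Cplx2* had a log2 fold change of -0.93 ± 0.19 (SE), adjusted p = 0.0038. *Trp53bp1* of DNA repair and *Fam126b*, an adaptor of phosphoinositide metabolism, fell by 0.66 and 0.61 on the log2 scale.

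**Figure D5:**
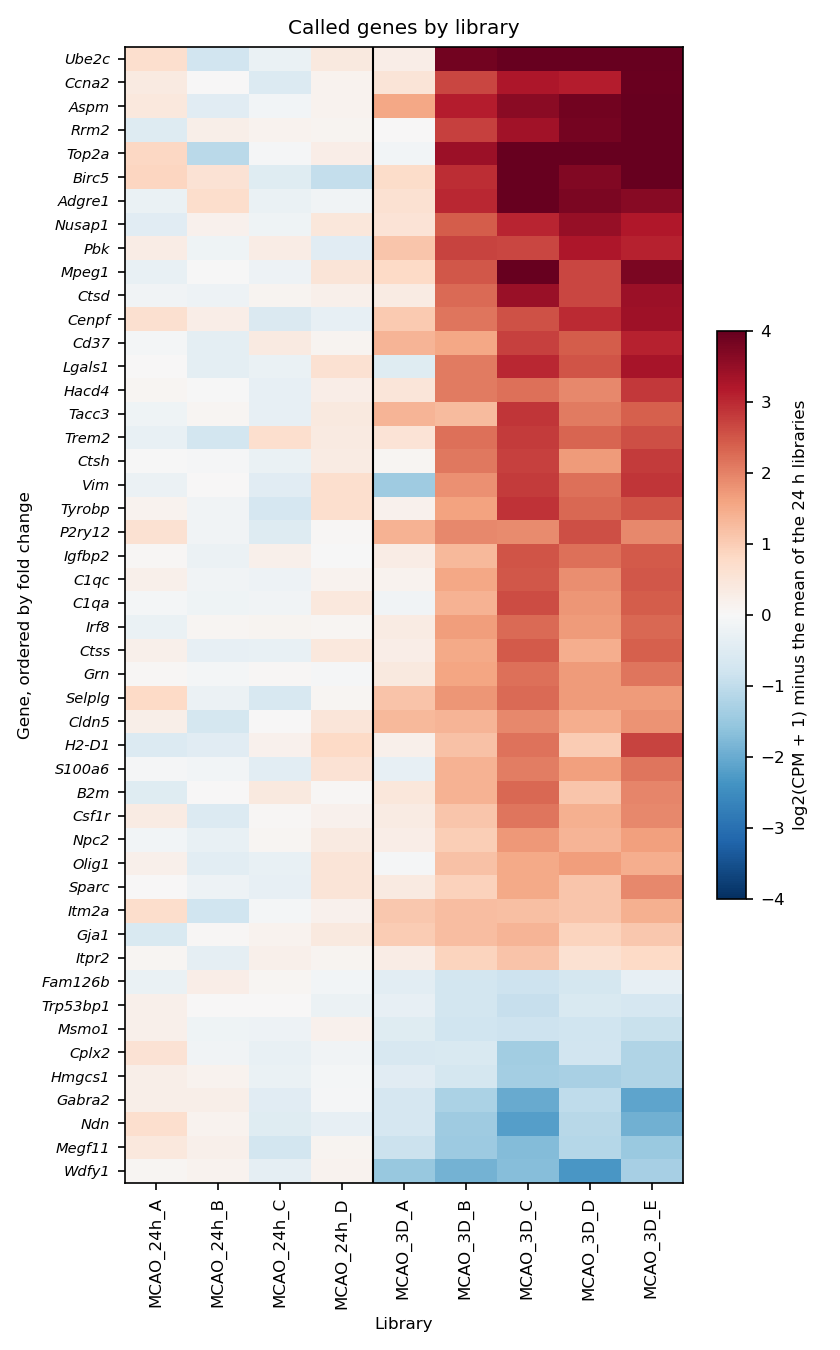
Log2(CPM + 1) minus the mean of the 24 h libraries (color, red above and blue below) for the called genes that the text describes (rows, ordered by fold change, without *Tmem181b-ps* and genes not reported here) in each of the 9 libraries (columns). Day 3 libraries B to E are red for the rises and blue for the falls, while library A is pale for most rises.

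Lists of the first hours of injury and of energy and protein metabolism had no called member. For 26 immediate early genes the median log2 fold change was -0.01 (0.10 without day 3 library A), for 27 of heat shock and unfolded protein -0.36 (-0.20 without day 3 library A), for 26 targets of hypoxia-inducible factor 0.11 (0.08 without day 3 library A) and for 25 of metallothionein, iron and antioxidant defence 0.49 (0.63 without day 3 library A). The immediate early genes did shift between the shams, with a median log2 fold change of 0.55. Their summed level was 1105 to 1238 CPM in 24 h shams and 1598 to 1924 CPM in day 3 shams. Over the shams of the same time, their median after MCAO was 0.57 at 24 h and 0.09 at day 3. This shift of the list was not tested. *Hspa1a* had a log2 fold change of -1.97 ± 0.68 (adjusted p = 0.124) and *Hspa1b* one of -2.26 ± 0.71 (adjusted p = 0.0895), with *Hspa1a* at 7.65, 93.5, 197 and 28.7 CPM at 24 h and 12.3, 10.8, 42.9, 17.6 and 21.2 CPM at day 3, a range that overlapped. *Mt1* had a log2 fold change of -0.60 ± 0.18 (adjusted p = 0.0736) and *Mt2* one of -0.41 ± 0.26 (adjusted p = 0.479). For 22 genes of glycolysis, 30 of oxidative phosphorylation, 30 of the proteasome and 38 of cytosolic ribosomes the medians lay between -0.10 and 0.16. *Hk1* had a log2 fold change of -0.49 ± 0.16 (adjusted p = 0.0986) and *Hk2* one of 1.41 ± 0.38 (adjusted p = 0.0404), and *Hk2*, a hexokinase on the glycolysis and hypoxia lists, was called without day 3 library A. These 8 lists had 3, 15, 7, 12, 6, 4, 3 and 5 at an unadjusted p under 0.05 and 0, 2, 0, 3, 0, 0, 0 and 0 called by DESeq2, in the order given. Against the 15.2% of all genes at that p, the immediate early, oxidative phosphorylation, proteasome and ribosomal lists had a lower share, and the heat shock and metallothionein lists had the highest shares of the 8. Without library A, when 1.56% of all genes were called higher, 4 of the 25 metallothionein, iron and antioxidant genes rose (*Fth1*, *Slc40a1*, *Trf* and *Gpx1*), as did *Rpl32* of the ribosomal list. Of 17 metalloproteinases and inhibitors, 29 genes of apoptosis, 14 of glucocorticoid response, 16 of the circadian clock, 11 of thalamus and 12 of choroid plexus and ependyma 0 changed by edgeR (5, 5, 3, 3, 4 and 2 at an unadjusted p under 0.05 and 0, 0, 0, 0, 0 and 1 called by DESeq2, beside 15.2% and 1.17% of all genes), with medians of 0.91, 0.80, 0.34, 0.01, 0.14 and 0.86.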

How the data were processed

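Libraries of polyadenylated RNA (QuantSeq 3′ mRNA-Seq FWD, ERCC spike-ins) were sequenced by the authors, who trimmed reads, removed ribosomal RNA and aligned to GRCm38 with STAR 2.5.2b. The authors deposited raw counts of reads per gene from HTSeq on a Gencode annotation. Groups came from the labels' condition, time and letter, and all 48 libraries entered. Spike-ins and the summary lines of HTSeq stayed outside library sizes.

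Genes with more than 10 counts over all libraries (19970) were fitted with edgeR 4.0.16 in R 4.3.3 (TMM, quasi-likelihood test, 11 groups). Calls needed a Benjamini-Hochberg adjusted p under 0.01 and a log2 fold change over 0.58 in size. DESeq2 1.42.0, spike-in scaling, other filters, a replicate block, the compared groups alone and leaving out each library were alternatives. Steps were tested on simulated data. Depth of 1599847 to 2361072 counts limits genes of few reads, and intervals cover counting error only.

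The members and gene lists were chosen with earlier results of these data known. Named were the 12 largest rises and falls without overlap and with a mean of at least 5 CPM, and of each list up to 4 called members with the smallest p or else its first 2 genes. A few genes that met the rule are not reported here. Other genes are marked as chosen after their values were seen. Gene symbols and positions came from Gencode vM21 and promoters from RefSeq, both on GRCm38.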

Additional observations from a re-analysis of the deposited data

Results flagged for a closer look

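Of 198 groups of 4 or 5 libraries examined, 13 held 1 library far from the others. Chance alone gives about 1 in 20, and the number found was near that share. Of the summed levels, the neutrophil genes stood at 932 CPM in day 3 library C against 11.7 to 163 CPM in the other day 3 libraries. The precursor and newly formed oligodendrocyte genes stood at 668 CPM in day 3 library A against 894 to 983 CPM. At 24 h, library D stood apart in the metallothionein, iron and antioxidant genes (7002 CPM against 4446 to 4597 CPM), the reactive astrocyte genes (2240 CPM against 1194 to 1341 CPM) and the angiogenesis genes (617 CPM against 515 to 529.5 CPM). Library A of 24 h stood apart in the glycolysis genes, at 6183 CPM against 5741 to 5809 CPM.

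Of single genes at 24 h, *Adgre1* was at 5.14 CPM in library B against 2.12 to 2.44 CPM, *C1qa* at 139.9 CPM in library D against 92.1 to 98.6 CPM, and *Wdfy1* at 40.7 CPM in library C against 55.7 to 58.1 CPM. Library A of 24 h held *Cplx2* at 1216 CPM against 652 to 739 CPM, *Irf8* at 22.9 CPM against 29.3 to 30.1 CPM and *Tmem181b-ps* at 0.425 CPM against 0. Library A of day 3 held *Msmo1* at 137 CPM against 103 to 110.4 CPM.

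The change between the times after MCAO differed from that in sham in edgeR's interaction test for *Tmem181b-ps*, by 7.33 on the log2 scale (adjusted p = 1.03e-06).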

How the results depend on the processing

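The 97 genes called kept their direction under every alternative run, but their number depended on the setting. Against 97 (84 higher, 13 lower), DESeq2 called 233 (199 and 34), spike-in scaling 59 (38 and 21), no filter on low counts 223 (190 and 33), the compared groups alone 4 (3 and 1), and the compared groups without day 3 library A, chosen after seeing the data, 473 (402 and 71). Leaving out 1 library gave 15 to 397 genes, 13 to 311 of them higher and 2 to 86 lower. With the replicate block, 71 genes were called, 64 higher and 7 lower. The labels do not say what libraries of the same letter share. Same-lettered libraries of the 2 times had deviations correlated at 0.07, -0.13, 0.09 and 0.18 (A to D), and a batch shared by letter was not tested. Between shams, 1 gene was called with no filter and 28 with these groups alone, against 0. For the difference from sham, DESeq2 called 5 genes, no filter 6, leaving out day 3 library A 11, and the compared groups without it 82, against 2. The cause of these shifts was not tested.

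The log2 fold change turned sign for *Ccl2* with the replicate block (-0.035) and, without day 3 replicate C, for 4 more genes, of which none was called. Leaving out 1 library gave *Il1a* -0.066 to 1.76, *Il1b* -0.62 to 2.79, *S100a8* -0.87 to 2.08 and *S100a9* -0.68 to 1.95, the lowest value in each case being the one without day 3 replicate C.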
